A study of Mus musculus with 4 samples.

Results

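Respiratory chain genes are those whose products form the electron transport complexes and the ATP synthase of the inner mitochondrial membrane. Members were taken by name: protein-coding genes whose GENCODE M21 symbol begins with Ndufa, Ndufb, Ndufc, Ndufs or Ndufv and a digit, with Uqcr, with Cox4 to Cox8, with Atp5, or with the prefix of a mitochondrially encoded complex subunit. Of 54532 genes listed, 94 met the rule, 81 of them in the nuclear genome and 13 in the mitochondrial genome. By name, the nuclear members comprised 37 genes of complex I, 8 of complex III, 18 of complex IV and 18 of complex V. Ndufa4 and Ndufa4l2 are counted with complex I throughout, although Ndufa4 is now placed in complex IV. The names leave out complex II, cytochrome c1 (Cyc1), cytochrome c (Cycs), the acyl carrier Ndufab1 and the ATP synthase inhibitor Atpif1, which are given separately near the end.

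RNA had been sequenced from brain tissue of C57BL/6 mice in 4 groups that cross 2 ages with 2 tumor states. The tumor-bearing mice carried an intracranial graft of 50000 GL261 cells, a transplantable mouse glioma line of the same strain, and extra-tumoral tissue, brain outside the tumor mass, was collected on day 21. Naive mice of both ages served as controls. Young mice were aged 8 to 12 weeks, whereas the range stated for old mice was 8 to 90 weeks, so "old" is used only as a label. The naive samples also carry the cell line tag GL261, and the group tag was followed for them. Each group was a single library from an unstated number of animals. There was therefore no replicate check and no test, and every comparison below is between libraries. Folds carry exact conditional binomial 95% intervals from recovered reads, which cover counting error only.

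The respiratory chain passes electrons from NADH through complex I, ubiquinone, complex III and cytochrome c to complex IV, where oxygen is reduced. Complexes I, III and IV pump protons, and complex V, the ATP synthase, uses the resulting gradient to make ATP. Complexes I, III, IV and V are built from subunits of both genomes, the mitochondrial genome supplying hydrophobic core subunits and the nucleus the remaining subunits. In brain, neurons are the best known heavy users of this pathway.

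The mitochondrially encoded members differ in how well their reads can be placed, because part of the mouse mitochondrial genome has a near-identical copy on chromosome 1 (mm10 positions 24611535 to 24616197, annotated as unprocessed pseudogenes). The first 90 coding bases of mt-Co2, cytochrome oxidase subunit 2, and of its copy are shown because they cannot be told apart by sequence. Those of mt-Nd3, a complex I subunit, and of its copy are shown because they differ by the 1 base in capitals. The bases lie at chrM:7013-7102 (plus strand), chr1:24615476-24615565 (minus strand), chrM:9459-9548 (plus strand) and chr1:24613030-24613119 (minus strand), in the order printed.
mt-Co2: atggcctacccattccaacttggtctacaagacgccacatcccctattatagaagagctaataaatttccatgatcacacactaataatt
Gm28661: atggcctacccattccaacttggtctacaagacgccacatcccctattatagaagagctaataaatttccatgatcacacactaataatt
mt-Nd3: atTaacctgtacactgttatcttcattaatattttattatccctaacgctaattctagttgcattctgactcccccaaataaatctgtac
Gm28438: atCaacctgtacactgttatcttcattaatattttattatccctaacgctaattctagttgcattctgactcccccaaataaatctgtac
Over the 681 bases of the copy of mt-Co2 there were 0 differences, and over the 345 bases of the copy of mt-Nd3 there was 1. Of the 100-base windows of each gene, 99.5% in mt-Co2 and mt-Atp6, 99.9% in mt-Co3, 97.6% in mt-Nd3 and 98.5% in mt-Nd4l were found unchanged in another annotated transcript. The share was 60.8% in mt-Nd4, 30.8% in mt-Co1 and 3.19% in mt-Nd2. It was 0 in mt-Atp8, mt-Cytb, mt-Nd1, mt-Nd5 and mt-Nd6, although mt-Atp8 lies between mt-Co2 and mt-Atp6. The levels of mt-Co2, mt-Atp8, mt-Atp6, mt-Co3, mt-Nd3 and mt-Nd4l are therefore uncertain, and how the authors treated reads with several places is not given in the sources used here.

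Depth was similar across the libraries, with 23267928 and 21893368 fragments in genes in the young naive and tumor-bearing libraries and 19629001 and 19572259 in the old ones. The deposited scale was less even. FPKM is fragments per kilobase of gene divided by a depth figure, and that figure was 0.879, 0.914, 0.797 and 1.19 times the fragments in genes, in the same order. FPKM of the old tumor-bearing library are therefore lower for the same share of fragments. The old tumor-bearing library also stood apart in its cell markers. Of 10 neuronal markers, 9 were at least 2-fold lower than in old naive tissue, with summed levels of 1215, 1060, 1511 and 309 FPKM in the order above and 0 markers listed at 0. The 5 dividing-cell markers summed to 0.732, 5.36, 0.458 and 117 FPKM. The part of these markers in the results below was not tested. In whole tissue, fewer cells of a type and less RNA per cell cannot be told apart. Which cells carried the dividing-cell markers, and whether graft cells were among them, was not tested.

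All 13 mitochondrially encoded members were lower in old tumor-bearing than in old naive tissue, and all 13 were at least 2-fold lower. Over all measured genes that share was 31.4%, and over protein-coding genes 29.7%. Their median log2 ratio of FPKM + 0.1 was -1.94, with a range from -2.65 to -1.62, beside -0.31 for all genes measured (those that reached 1 FPKM in either library). Between the young libraries the median was -0.23, 11 of 13 were below 0 and 1 was at least 2-fold lower, beside 1.85% of all genes and 0.35% of protein-coding genes. That member was mt-Atp8, from 11 and 5 reads, and scaled by fragments in genes or by equal totals 0 members were. The mitochondrial ribosomal RNAs mt-Rnr1 and mt-Rnr2, which are no members, both had a log2 ratio of -2.39 in the old pair.

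Cytochrome oxidase subunit 1 (mt-Co1, mm10 chromosome M, 5328 to 6872), which holds the oxygen-reducing site of complex IV, had the highest level of all members. It was listed at 14188 FPKM in young naive, 11889 in young tumor-bearing, 15604 in old naive and 4678 in old tumor-bearing tissue. It was 3.34-fold lower in the old pair (3.32 to 3.35), and the young tumor-bearing library was 1.19-fold lower than the young naive one (1.19 to 1.2). The old tumor-bearing library was the low one, and the other 3 lay close together.

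The same order held for cytochrome b (mt-Cytb, chromosome M, 14145 to 15288), the mitochondrially encoded subunit of complex III, at 6901, 6102, 7746 and 2031 FPKM in the same library order. It was 3.81-fold lower in the old tumor-bearing library than in the old naive one (3.78 to 3.85). Among the complex I subunits, which form its membrane arm, mt-Nd1 stood at 7374, 6390, 8075 and 2101 FPKM and was 3.84-fold lower in the old pair (3.8 to 3.88). The level of mt-Nd2 was 5093, 3860, 4485 and 1078 FPKM, a 4.16-fold difference in the old pair (4.10 to 4.22). In these genes too the old tumor-bearing library was the lowest by a wide margin.

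The remaining complex I genes came close to the same ratio. For mt-Nd4 the 4 levels were 3429, 2933, 3780 and 904 FPKM, 4.18-fold lower in the old tumor-bearing than in the old naive library (4.12 to 4.24). For mt-Nd5 they were 2692, 2555, 3373 and 842 FPKM, 4.01-fold lower (3.96 to 4.05). The gene mt-Nd6, the only member on the light strand, was listed at 2731, 2742, 3806 and 1028 FPKM. It overlaps the end of mt-Nd5 on the other strand, and whether counting used strand was not given, so its value is uncertain. Over the 7 members without a full copy elsewhere the old-pair log2 ratios ran from -2.06 to -1.74.

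The 6 members between mt-Co2 and mt-Nd4l, whose stretch has the chromosome 1 copy, were listed at far lower levels. The highest was mt-Co2, at 255, 134, 191 and 62.2 FPKM. Next came mt-Nd3 at 107, 113, 167 and 34.4 FPKM. The other mitochondrially encoded cytochrome oxidase subunit, mt-Co3, stood at 79.3, 57.5, 91.1 and 24.7 FPKM. These levels were far under that of mt-Co1, although the genes lie on the same strand of the same genome. The complex I subunit mt-Nd4l was listed at 56.2, 32.8, 60.9 and 9.85 FPKM, and the ATP synthase subunit mt-Atp6 at 48.8, 41.9, 93.9 and 14.9 FPKM. The second ATP synthase subunit, mt-Atp8, rested on 11, 5, 18 and 7 reads. In old tumor-bearing tissue the median of these 6 was -2.08, the same direction as in the 7 without a full copy, of which mt-Nd4 and mt-Co1 also share part of their windows. Their spread was wider, with mt-Atp6 6.30-fold lower (5.46 to 7.30) and mt-Co2 3.08-fold lower (2.85 to 3.32).

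**Figure D1:**
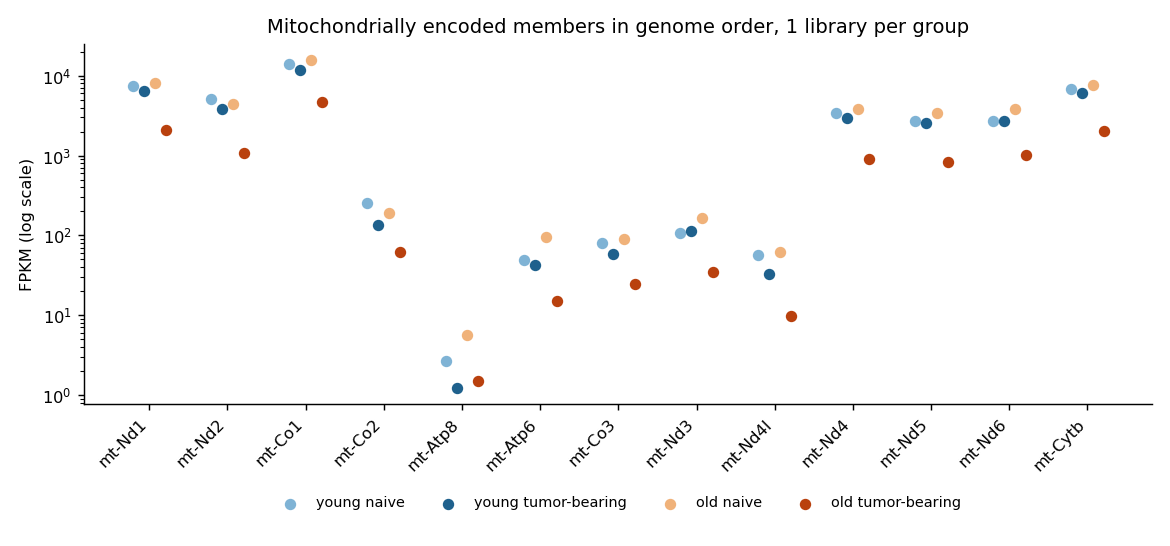
FPKM (log axis) of the 13 mitochondrially encoded members in the order of the mitochondrial genome, 1 point per library. The old tumor-bearing point is lowest in each gene except mt-Atp8, where the young tumor-bearing library is at 1.23 and the old tumor-bearing at 1.48 FPKM, and the 6 genes from mt-Co2 to mt-Nd4l lie at 255 FPKM or less.

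A ratio within a library does not depend on the depth figure. Reads in mitochondrially encoded members numbered 5.33 per read in nuclear members in young naive, 5.38 in young tumor-bearing, 5.93 in old naive and 2.16 in old tumor-bearing tissue. This ratio was 2.75-fold lower in the old tumor-bearing than in the old naive library (2.73 to 2.77, a normal approximation of the log ratio of 4 counts). For the young pair it was 1.01-fold higher (1.0 to 1.02). Mitochondrially encoded members took 4.70%, 4.18%, 4.71% and 1.91% of all fragments in genes, and nuclear members 0.883%, 0.778%, 0.793% and 0.885%. By share of fragments, then, the nuclear members of the old tumor-bearing library were not below those of the other 3 libraries, whereas the mitochondrially encoded ones were.

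In the old pair each of the 13 mitochondrially encoded log2 ratios lay below that of every measured nuclear member, the lowest of which was Cox6a2 at -1.53. The 2 medians differed by -1.49 in the old pair and by -0.04 in the young pair. The mitochondrially encoded members were not alone at such values: 12.2% of all measured protein-coding genes had a log2 ratio at or below their median in the old pair. Neuronal markers, at a median of -2.52, lay lower still.

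**Figure D2:**
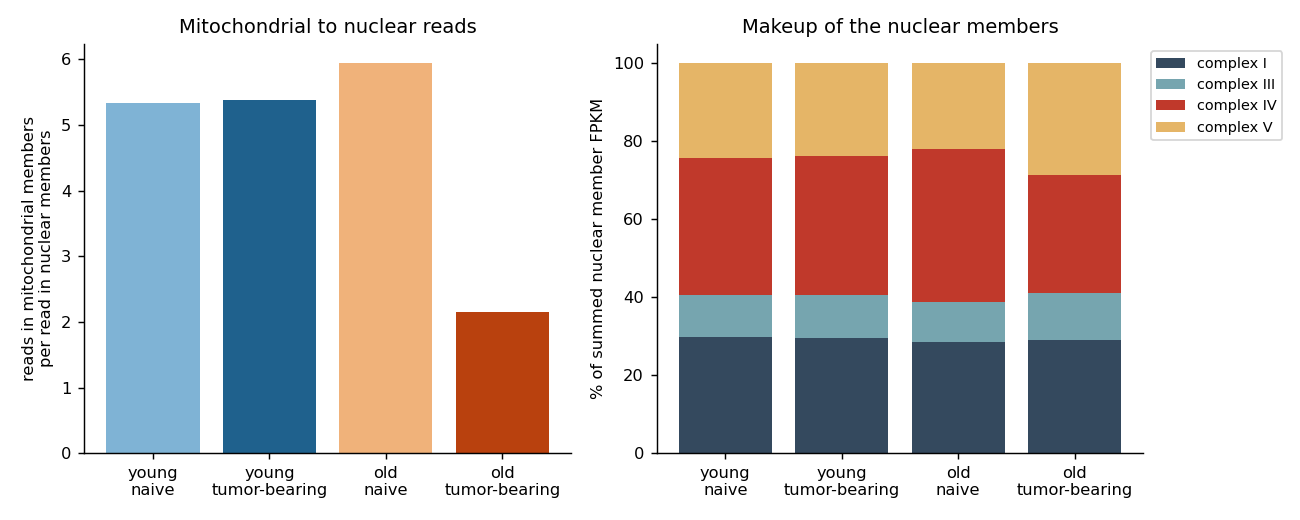
Left, reads in mitochondrially encoded members per read in nuclear members, 1 bar per library. The bar of the old tumor-bearing library stands at 2.16 and the other 3 between 5.33 and 5.93. Right, the percentage of the summed FPKM of nuclear members that belongs to each complex. Complex V took 28.5% in old tumor-bearing tissue and 22.1% to 24.2% in the other libraries, and complex IV 30.3% against 35.3% to 39.0%.

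Of the 81 nuclear members, 76 were at 1 FPKM or more in all 4 libraries and 78 in at least 1. The testis isoform Cox8c and a second gene annotated as Atp5o (ENSMUSG00000116933) were listed at 0 in every library, and the isoform Cox7b2 stayed under 0.4 FPKM. The highest nuclear members were small complex IV subunits. Cox8a was listed at 586 FPKM in young naive, 513 in young tumor-bearing, 673 in old naive and 314 in old tumor-bearing tissue, and Cox6a1 at 472, 409, 582 and 317 FPKM. The catalytic subunit of the ATP synthase, Atp5b, stood at 340, 267, 302 and 238 FPKM. These levels are per length of annotated exons, so a member with long annotated exons reads low: Ndufb2, with 5628 exonic bases, was listed at 4.71, 3.90, 3.53 and 1.93 FPKM.

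Many nuclear respiratory genes are known to carry promoter sites for NRF1, for ETS factors such as GABP and for YY1. Stretches of 120 bases that end just before the annotated start of the gene are printed for 1 member of each complex, as examples of where such letters lie. They come from RefSeq (GRCm38.p6) and read along the gene, at chr16:37654454-37654573 for Ndufb4, chr4:116075072-116075191 for Uqcrh, chr5:115348982-115349101 for Cox6a1 and chr2:174464106-174464225 for Atp5e, all on the minus strand. Capitals mark an NRF1 match in Ndufb4 and Cox6a1 and an ETS match in Uqcrh and Atp5e. Each printed stretch holds a match, whereas most such stretches of other members hold none.
Ndufb4: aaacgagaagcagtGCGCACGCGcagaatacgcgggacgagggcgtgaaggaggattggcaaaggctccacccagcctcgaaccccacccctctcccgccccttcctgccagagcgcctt
Uqcrh: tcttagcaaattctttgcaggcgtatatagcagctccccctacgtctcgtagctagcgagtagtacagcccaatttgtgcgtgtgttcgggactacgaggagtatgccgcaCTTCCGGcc
Cox6a1: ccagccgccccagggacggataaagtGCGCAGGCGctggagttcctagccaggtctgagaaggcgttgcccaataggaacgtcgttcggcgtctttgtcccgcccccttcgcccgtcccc
Atp5e: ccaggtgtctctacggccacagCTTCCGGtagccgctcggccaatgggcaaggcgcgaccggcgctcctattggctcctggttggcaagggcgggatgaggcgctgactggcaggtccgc
RefSeq windows from 250 bases before to 50 after the start matched 63 of the 80 nuclear symbols, with 68 windows. The letters GCGCANGCG (NRF1) were found on either strand in 19 windows (27.9%), against 6.25% of all 32851 windows. CCGGAAG (ETS) was in 14 (20.6%, against 8.86%) and AAGATGGCG (YY1) in 7 (10.3%, against 1.40%). At least 1 of the 3 was in 33 windows (48.5%, against 14.8%). A match is only a match of letters. The old-pair medians of members with and without each match, which were not tested against each other, were -0.44 (18 genes) and -0.42 (44) for NRF1, -0.25 (14) and -0.43 (48) for ETS, and -0.40 (7) and -0.43 (55) for YY1. The log2 ratios of the printed examples in that comparison were -1.05 for Ndufb4, -0.48 for Uqcrh, -0.88 for Cox6a1 and 0.38 for Atp5e.

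In young tumor-bearing against young naive tissue the nuclear members were slightly and broadly lower. Of 77 measured members, 69 were below 0, with a median of -0.19, beside -0.02 for protein-coding genes, of which 6817 of 12875 were below 0. Of the 77, 0 were at least 2-fold higher (5.05% of all and 2.31% of protein-coding genes) and 1 was at least 2-fold lower (1.85% and 0.35%). The medians of complexes I, III, IV and V lay close together, at -0.21, -0.16, -0.15 and -0.22. Scaled by fragments in genes, 64 of the 77 were still below 0.

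The member past 2-fold was Ndufa12 (ENSMUSG00000020022, mm10 chromosome 10, 94198720 to 94221443), an accessory subunit of the complex I matrix arm. It was listed at 39.7 FPKM in young naive tissue and at 16.3, 17.8 and 13.6 FPKM in the other 3 libraries, from 1273, 510, 438 and 497 reads. The young naive library was the high one and the other 3 lay close together. Its ratio in the young pair was 2.44-fold lower (2.20 to 2.71), and in old against young naive tissue 2.22-fold lower (1.99 to 2.48). Both ratios share the young naive library.

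The next lowest in the young pair were Ndufa4l2, at 2.59 and 1.60 FPKM, Ndufa8, at 82.8 and 56.4 FPKM, Ndufb4, at 24.1 and 17.4 FPKM, and Ndufs8, at 89.8 and 65.1 FPKM in young naive and tumor-bearing tissue. All are complex I genes by name, and Ndufs8 is one of its iron-sulfur subunits. The highest were Cox6b2, Cox6a2 and Cox4i2 (log2 ratios 0.72, 0.36 and 0.27), the complex IV isoforms described below, then Ndufa6 (0.11) and Atp5s (0.10).

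In the old pair, tumor-bearing against naive, the nuclear members spread more and differed by complex. Of 78 measured, 8 were at least 2-fold lower and 1 was at least 2-fold higher, shares well under those of all genes in that comparison (20.6% higher and, as above, 31.4% lower) and of protein-coding genes (19.3% higher, 29.7% lower). The median was -0.45, beside -0.28 for protein-coding genes, and 66 of 78 were below 0, beside 7972 of 13582 protein-coding genes. These counts and the direction depend on the scale. At 2-fold there were 2 lower and 2 higher by median-of-ratios scaling, 0 and 4 by fragments in genes, and 3 and 2 by equal totals without the highest genes. Further, 49 were above 0 when scaled by fragments in genes and 32 by median-of-ratios scaling, against 12 on the deposited scale. At 1.5-fold, a limit added after the data were seen, 29 were lower (37.2%), near the 41.9% of all genes and 40.8% of protein-coding genes. Under the same 3 scalings that number was 8, 4 and 11. The shares of all genes given here are on the deposited scale and were not counted under these scalings. The median of all genes under them was 0.07, 0.26 and -0.02.

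The order of the complexes does not depend on the scale. The old-pair medians were -0.80 for complex IV, -0.54 for complex I, -0.52 for complex III and -0.07 for complex V. Relative to complex V, complex IV lay 0.73 lower on the log2 scale, complex I 0.47 lower and complex III 0.45 lower. The same differences in the young pair were 0.07, 0.01 and 0.06 upward. The plot of log2 ratios by complex shows this separation and its overlap.

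**Figure D3:**
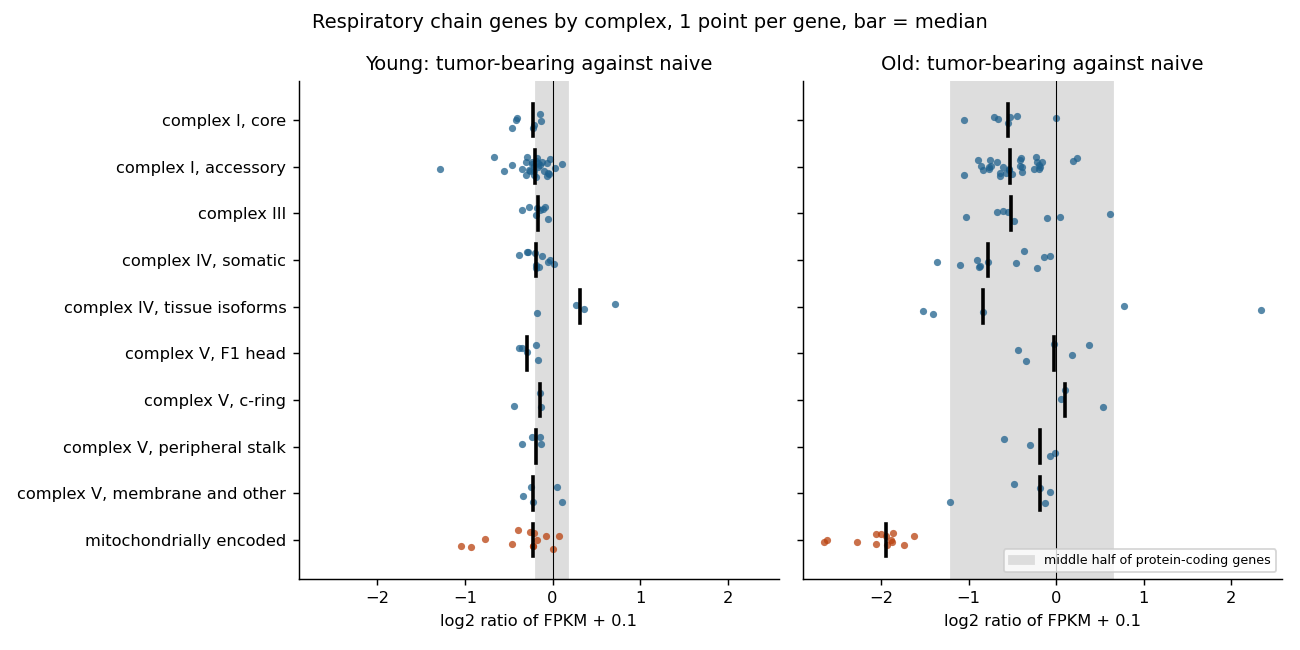
Log2 ratio of FPKM + 0.1, tumor-bearing against naive, for each measured member by role, 1 point per gene, with the median as a bar and the interquartile range of all protein-coding genes shaded. In the young pair (left) the medians lie near -0.2 apart from the isoforms of complex IV. In the old pair (right) complex V groups lie near 0, complexes I, III and IV near -0.5 to -0.8, and the mitochondrially encoded members from -2.65 to -1.62.

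Within complex I, the 7 core subunits, which carry the flavin, the iron-sulfur clusters and the quinone site, had an old-pair median of -0.55. The 30 genes listed as accessory by name, Ndufa4 and Ndufa4l2 among them, had one of -0.52. The flavin-binding Ndufv1 (ENSMUSG00000037916) was listed at 55.7 FPKM in young naive, 50.9 in young tumor-bearing, 66.7 in old naive and 32 in old tumor-bearing tissue, 2.08-fold lower in the old pair (1.97 to 2.21). Its partner Ndufs1, the largest iron-sulfur subunit, was at 19.9, 17, 15.2 and 11.1 FPKM, 1.37-fold lower (1.29 to 1.46). The core subunit Ndufs3, in contrast, was listed at 34.8 FPKM in old naive and 34.9 in old tumor-bearing tissue (1.0-fold, 0.930 to 1.08). So the core subunits, which are present once each in the complex, did not share 1 ratio.

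The quinone-site subunit Ndufs7 lay between these. It stood at 64.6, 48.6, 55.1 and 38.3 FPKM and was 1.44-fold lower (1.34 to 1.55). Among accessory subunits, Ndufb4 of the membrane arm was at 24.1, 17.4, 26.7 and 12.8 FPKM, 2.08-fold lower in the old pair (1.87 to 2.33). Ndufb6 and Ndufa2 were the 2 accessory subunits above 0, at 1.18-fold (1.05 to 1.32) and 1.14-fold (1.04 to 1.25) higher. Ndufb6 shares 24.0% of its 100-base windows with the neighbouring gene Smim27, so its value is uncertain.

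In complex III, Uqcrc1, one of the large core proteins on its matrix side, was lowest. It was listed at 74.8, 62.1, 76.3 and 37.2 FPKM in the library order used above, 2.05-fold lower in the old pair (1.97 to 2.14). The Rieske iron-sulfur protein Uqcrfs1 was at 83.6, 75.6, 78.2 and 53.2 FPKM, 1.47-fold lower (1.37 to 1.57). The small subunit Uqcrq (ENSMUSG00000044894, chromosome 11, 53427922 to 53430831) went the other way, at 53.2, 46.5, 52.4 and 80.3 FPKM, 1.53-fold higher (1.44 to 1.63). Its old tumor-bearing level was the highest of the 4, while that of Uqcrc1 was the lowest.

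In complex IV the 11 genes listed as common to most tissues were all below 0 in the old pair on the deposited scale, with a median of -0.77. Cox7a2l was counted among them. The regulatory subunit Cox4i1 (ENSMUSG00000031818, chromosome 8, 120668222 to 120674207) was listed at 322 FPKM in young naive, 247 in young tumor-bearing, 356 in old naive and 138 in old tumor-bearing tissue. It was 2.57-fold lower in the old pair (2.48 to 2.66) and 1.30-fold lower in the young pair (1.27 to 1.34). Cox8a was 2.14-fold lower in the old pair (2.06 to 2.23), Cox6b1 1.88-fold (1.76 to 2.0) and Cox6a1 1.84-fold (1.77 to 1.91). Cox5a, which joins Cox4i1 early in assembly, was close to level at 47.3, 38.8, 38.7 and 36.8 FPKM, 1.05-fold lower (0.978 to 1.13), and Cox7a2 was 1.10-fold lower (1.03 to 1.18). The ratios thus ran from near 1 to over 2.5 within a single complex.

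In complex V the medians of the catalytic head with its central stalk and of the ring were near level in the old pair on the deposited scale, at -0.02 over 5 genes and 0.10 over 3, with single genes on both sides. Atp5a1 and Atp5b, the alpha and beta subunits of the catalytic head, were 1.02-fold (0.996 to 1.04) and 1.27-fold (1.24 to 1.29) lower in the old pair. Atp5a1 was listed at 306, 272, 302 and 297 FPKM. The central stalk subunit Atp5c1 stood at 122, 93.5, 98.0 and 111 FPKM, 1.13-fold higher (1.08 to 1.18), and Atp5e at 38.7, 33.9, 37.5 and 48.6 FPKM, 1.30-fold higher (1.20 to 1.40). Atp5d, also of the central stalk, was the lowest of the 5, at 110, 90 and 107 FPKM and then 79 in the old tumor-bearing library, 1.35-fold lower (1.29 to 1.42). All 5 head and central stalk genes were below 0 in the young pair, with a median of -0.29. Lowest in complex V was Atp5s, a factor that associates with the synthase, at 6.81, 7.33, 9.25 and 3.94 FPKM, 2.34-fold lower in the old pair (1.95 to 2.83).

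The c-ring, which turns as protons pass, is encoded by 3 genes whose mature products are the same protein. Atp5g2 (ENSMUSG00000062683, chromosome 15, 102662864 to 102672352) was listed at 36.6, 33.2, 36.6 and 53.0 FPKM, 1.45-fold higher in the old pair (1.34 to 1.56). Atp5g1 was at 21.7, 16, 18 and 19.3 FPKM and Atp5g3 at 77.1, 70.1, 73.6 and 76.8 FPKM. As a share of the 3, Atp5g2 made up 27.1%, 27.8%, 28.6% and 35.6%, and Atp5g3 56.9%, 58.8%, 57.4% and 51.5%. The share of Atp5g2 was highest, and that of Atp5g3 lowest, in the old tumor-bearing library. Atp5g2 shares 34.7% of its windows with annotated copies, so its level is uncertain.

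Complex IV has isoforms known from muscle, lung or testis, listed here at low levels. Cox6b2 (ENSMUSG00000051811, chromosome 7, 4751792 to 4753094), the testis form of Cox6b1, was at 1.85, 3.11, 0.981 and 5.36 FPKM, from 42, 69, 17 and 138 reads. It was 5.46-fold higher in the old pair (3.29 to 9.65) and 1.68-fold higher in the young pair (1.13 to 2.53), and was the 1 nuclear member past 2-fold higher. Both tumor-bearing libraries lay above both naive ones. Per 100 FPKM of Cox6b1 there were 1.09, 1.89, 0.489 and 5.02 FPKM of Cox6b2. The muscle form Cox8b, with 6, 7, 8 and 21 reads, was too thinly covered for an order, its old-pair ratio having an interval from 0.752 to 4.61.

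The muscle form Cox6a2, which neurons expressing parvalbumin are also known to use, went the other way. It was listed at 6.55, 8.46, 9.30 and 3.16 FPKM, 2.94-fold lower in the old pair (2.07 to 4.22) and 1.29-fold higher in the young pair (0.973 to 1.72). Pvalb, the marker of those neurons, stood at 173, 151, 62.7 and 16.7 FPKM. The muscle actin Acta1 was at 4.62, 3.32, 7.20 and 0.90 FPKM, but other striated muscle markers did not follow it. Of 7 such markers, 3 were measured in the old pair, with 2 at least 2-fold higher and 1, Acta1, lower, beside 20.6% and 31.4% of all genes. The log2 ratios of these 3 ran from -2.87 to 5.02, with the middle one at 1.85. Cox4i2, a lung and vascular form of Cox4i1, was at 2.67, 3.24, 3.65 and 1.31 FPKM, 2.79-fold lower in the old pair (1.66 to 4.78). Summed pericyte and vascular smooth muscle markers stood at 86.1, 81.7, 88.3 and 29.6 FPKM, with 0 of 6 listed at 0. What part these cells have in the 2 genes was not tested. Relative to its common form, Cox4i2 stood at 0.828, 1.31, 1.03 and 0.947 FPKM per 100 of Cox4i1.

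Of the other isoforms, Cox7a1, the muscle form of Cox7a2, stood at 4.02, 3.55, 2.51 and 1.37 FPKM. Its old tumor-bearing level was 2.60-fold below the young tumor-bearing one (1.43 to 4.91). Ndufa4l2 is a hypoxia-inducible relative of Ndufa4, which is named for complex I but is now placed in complex IV. It was at 2.59, 1.60, 2.51 and 1.45 FPKM, or 2.23, 1.5, 2.10 and 1.89 per 100 FPKM of Ndufa4. Ndufa4l2 was lower in both tumor-bearing libraries than in their naive controls, 1.62-fold in the young pair (1.05 to 2.54) and 1.73-fold in the old pair (1.09 to 2.76). The list of 10 hypoxia-responsive genes had an old-pair median of -0.98, with 1 at least 2-fold higher and 5 lower, beside 20.6% and 31.4% of all genes.

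**Figure D4:**
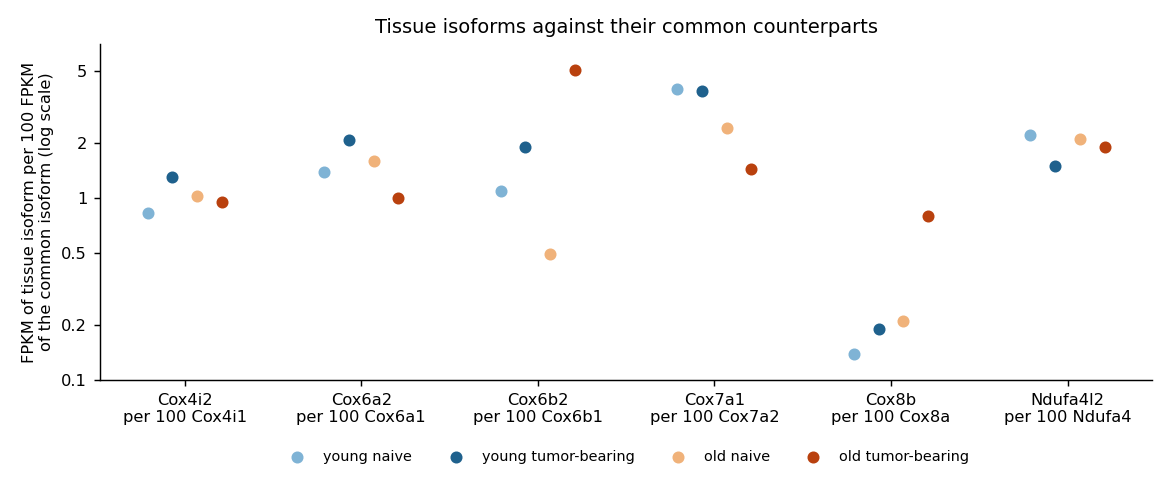
FPKM of each tissue isoform per 100 FPKM of its common counterpart (log axis), 1 point per library. Cox6b2 spans 0.489 to 5.02 and is highest in old tumor-bearing tissue, Cox8b rests on at most 21 reads, and Cox4i2 and Ndufa4l2 stay between 0.828 and 2.23.

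Between the naive libraries labelled old and young the nuclear members differed little. In old against young naive tissue 0 of 78 were at least 2-fold higher (6.71% of all and 3.26% of protein-coding genes) and 1, Ndufa12, was at least 2-fold lower (4.93% and 3.07%), with a median of -0.01. The 11 common complex IV genes were above 0 in 10 cases with a median of 0.20, the exception being Cox5a at -0.29. Of all 15419 genes, 8456 were above 0 and 6963 below. Scaling by fragments in genes lowers every ratio by 0.14. Cox7a2 (0.028), Cox7b (0.0024) and Cox7c (0.11) lay under that amount and the complex IV median above it, so the count rests on the scale. Of 7 core complex I subunits, 6 were below 0, with a median of -0.23. Scaled by fragments in genes, the median of all nuclear members was -0.15. The mitochondrially encoded members had a median of 0.17, with 1 at least 2-fold higher (mt-Atp8, from 11 and 18 reads), and that median was 0.03 by fragments. The ratio of mitochondrially encoded to nuclear reads was 1.11-fold higher in the old naive library (1.11 to 1.12).

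The highest ratios among nuclear members were those of Cox8b, Ndufa2, Cox6a2, Atp5k and Cox4i2, of which Cox8b (6 and 8 reads, 0.53 to 6.09) and Cox4i2 (0.88 to 2.13) had intervals that include 1. Ndufa2 was listed at 55.8 FPKM in young and 79.6 in old naive tissue (1.42-fold, 1.28 to 1.59), and at 57.0 and 90.7 FPKM in young and old tumor-bearing tissue (1.59-fold, 1.45 to 1.75). Both old libraries were thus above both young ones. Atp5k, subunit e of the synthase membrane part, was at 36.0, 37.3, 50.2 and 36.0 FPKM, with the old naive library alone high. Lowest after Ndufa12 were Cox6b2, Cox7a1, Ndufb2 and Ndufs1, the last at 1.31-fold lower (1.23 to 1.38).

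Between the tumor-bearing libraries, 12 of 13 mitochondrially encoded members were at least 2-fold lower in old tissue (29.8% of all and 27.9% of protein-coding genes), with a median of -1.59. The exception was mt-Atp8. Of 78 nuclear members, 3 were at least 2-fold lower and 1 at least 2-fold higher (19% of all and 17.6% of protein-coding genes), with a median of -0.24 that turned to 0.14 when scaled by fragments in genes. By that scaling and by median-of-ratios scaling 1 was lower and 5 were higher, but the shares of all genes were not counted under them. The 2-fold lower ones were the isoforms Cox6a2, Cox7a1 and Cox4i2, and the higher one was Cox8b, from 7 and 21 reads. Reads in mitochondrially encoded members per nuclear read were 2.49-fold lower in the old library (2.47 to 2.51). After Cox8b the highest were Uqcrq, Cox6b2, Atp5g2 and Ndufa2, of which Uqcrq was 1.73-fold (1.63 to 1.83) and Atp5g2 1.60-fold (1.48 to 1.72) higher. Uqcrq and Atp5g2 were thus high in the old tumor-bearing library against both of its comparison libraries. Lowest after the isoforms were Ndufb2, 2.02-fold by reads (1.72 to 2.36) but -0.98 on the log2 scale of FPKM + 0.1 and so not counted, and Cox7b, at 72.5, 73.5, 72.6 and 39.7 FPKM in the usual library order, 1.85-fold (1.71 to 1.99).

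The 2 tumor comparisons share no library. Across the 77 nuclear members measured in both, their log2 ratios were nearly unrelated (Pearson 0.14, Spearman -0.10), beside 0.46 and 0.25 across 12546 protein-coding genes. These describe genes of the same 4 libraries, which are not independent replicates.

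By median in the old pair, lists of genes that build or serve the chain lay closer to 0 than the mitochondrially encoded members. Complex II, encoded only in the nucleus, had an old-pair median of -0.19 over 4 genes: its flavoprotein Sdha stood at 101 FPKM in old naive and 47.0 in old tumor-bearing tissue, and its membrane anchor Sdhd at 49.5 and 74.2. Cytochrome c (Cycs) was at 29.6, 25.1, 23.0 and 39.4 FPKM, and Cyc1 at 75.7, 74.0, 76.1 and 77.3. The inhibitor Atpif1 stood at 48.7, 43.6, 55.6 and 33.4 FPKM, and Ndufab1 at 8.80, 7.66, 7.84 and 6.60. Of 39 measured assembly factors, 1 was at least 2-fold higher and 5 lower in the old pair (20.6% and 31.4% of all genes), with a median of -0.21. The lowest of them, Ndufaf3, stood at 17.7 FPKM in old naive and 4.76 in old tumor-bearing tissue. Its log2 ratio of -1.87 lay within the range of the mitochondrially encoded members. Citric acid cycle enzymes had a median of -0.36 over 15 genes, with 14 of them below 0 on the deposited scale. Of all 16488 genes measured in the old pair, 9643 were below 0. Scaling by fragments in genes raises every old-pair ratio by 0.58, so the directions of these nuclear list medians rest on the scale.

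Genes that copy, transcribe and process the mitochondrial genome lay on both sides of 0 in the old pair. Of 17 measured, 11 were above 0 and 6 below, with a median of 0.36. Past 2-fold, 4 were higher, a share near the 20.6% of all genes, and 0 were lower, against 31.4%. The 3 with the largest differences were Pnpt1, Twnk and Tefm. The RNA-processing nuclease Pnpt1 was listed at 7.07, 8.49, 5.89 and 19.9 FPKM, the helicase Twnk at 4.25, 4.95, 4.87 and 14.7, and the transcription elongation factor Tefm at 3.49, 2.93, 3.26 and 8.08. The mitochondrial RNA polymerase Polrmt was nearly level, at 7.98, 10.3, 10.9 and 9.23 FPKM. Mitochondrial ribosomal proteins had a median of 0.09 over 77 genes. Few of them passed 2-fold, 3 upward and 1 downward, both well under the 20.6% and 31.4% of all genes on the deposited scale. In the young pair the same 2 lists had medians of 0.04 and -0.20.

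Among nuclear regulators of respiratory genes, the coactivator Pprc1 stood at 3.77, 5.14, 5.79 and 22.2 FPKM and Gabpa, a subunit of the ETS factor GABP, at 6.91, 6.29, 4.65 and 11.3. These were the 2 of 8 at least 2-fold higher in the old pair, a share near the 20.6% of all genes. At least 2-fold lower were 0, against 31.4%. Ppargc1a was at 9.86, 9.29, 7.38 and 5.71 FPKM. Of 17 membrane and import genes, 4 were past 2-fold higher and 3 past 2-fold lower, beside 20.6% and 31.4% of all genes. The chaperone Hspd1 was listed at 64.6, 64.9, 54.7 and 166 FPKM and the import receptor Tomm20 at 69.5, 60.4, 80.0 and 29.2. Nuclear-encoded mitochondrial genes thus lay on both sides of 0 in the old pair, while the mitochondrially encoded members all lay below it.

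**Figure D5:**
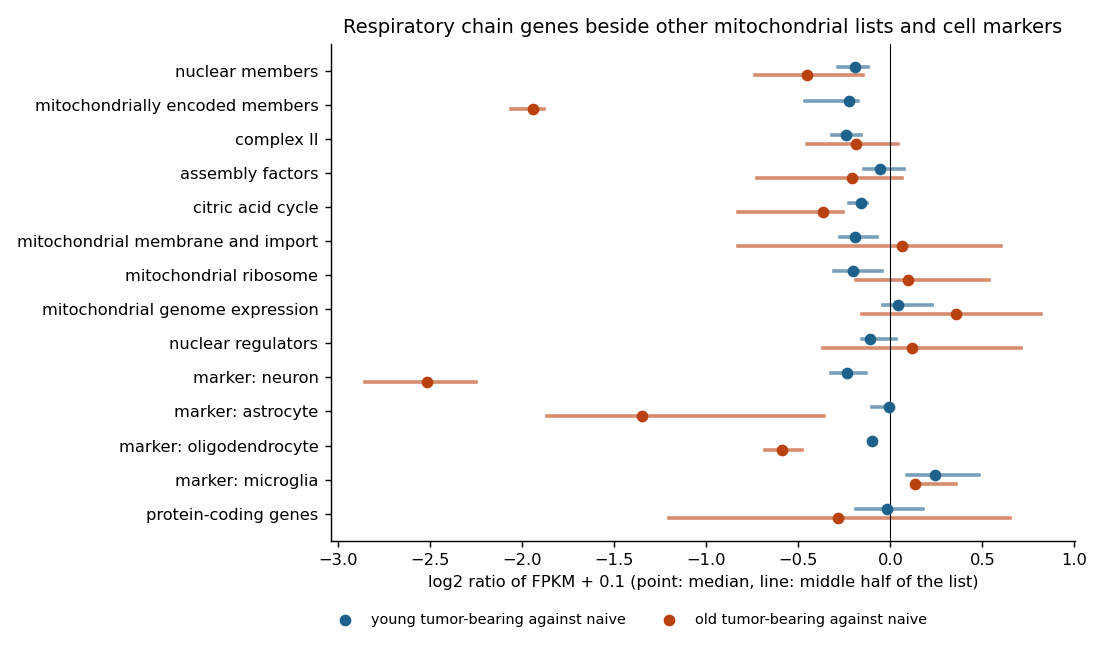
Median (point) and interquartile range (line) of log2 ratios of FPKM + 0.1, tumor-bearing against naive, for the members, other mitochondrial lists and cell markers, in the young (blue) and old (red) pair. In the old pair the mitochondrially encoded members lie at -1.94, between the neuronal markers at -2.52 and the astrocyte markers at -1.35, while nuclear mitochondrial lists lie between -0.45 and 0.36.

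Measured against the neuronal markers, the nuclear members stood 2.07 higher and the mitochondrially encoded members 0.58 higher on the log2 scale in the old pair, as differences of medians. These differences were 0.05 and 0.01 in the young pair. Oligodendrocyte markers had a median of -0.59 and microglia markers one of 0.13 in the old pair. Whether the mix of cells has a part in the difference between the 2 genomes was not tested.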

How the data were processed

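Poly-A RNA from the 4 libraries had been sequenced as paired-end reads. The labels' protocols describe both a stranded and an unstranded preparation without saying which was used. The aligner was HISAT2 and the build mm10, as the submitters' processing notes list them. The authors deposited FPKM, 1 value per gene and library, per the file headers, and the counting program, annotation and pooling are not given in the sources used here.

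Symbols, types, coordinates and exon lengths came from GENCODE M21 on mm10, which named 54495 of 54532 genes. FPKM times exon length came in steps of 1 read, which gave the depth figures (20445810, 19999586, 15646445 and 23253748) and reads. Of 32846 genes above 0, 31928 (97.2%) were whole in all 4 libraries, within 0.03 reads or 2e-05 of the value. Of 94 members, 88 were whole, the 2 at 0 among them. The other 6 (Ndufa7, Ndufv3, Ndufs8, Ndufv1, Cox7a2l and Cox8a) were rounded, so their intervals are approximate. For a gene of 1 kb, a count of 0 allows up to 3 reads, or 0.129 to 0.192 FPKM.

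A gene was measured in a comparison if it reached 1 FPKM in either library, and its log2 ratio was that of FPKM + 0.1, a scale that shrinks ratios of low genes. Differences of 2-fold were counted. With 1 library per group no test was run. Fold intervals are exact conditional binomial 95% intervals and hold counting error alone, as no molecular identifiers were counted. In each comparison the 5 highest and 5 lowest nuclear members are named, besides fixed core subunits and isoform sets, and up to 3 genes per other list. Others named are those that a sentence on a complex turns on, chosen after their values were seen. Some single-gene results are left out here. Members and lists were chosen with earlier results of these data known. Alternatives were pseudocounts of 0.01 and 1, floors of 0 and 5 FPKM, and 3 scalings. Read recovery and interval coverage were tested on simulated data (Python 3.11.15, pandas 2.3.3, numpy 2.4.6, scipy 1.17.1, matplotlib 3.10.9).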

Additional observations from a re-analysis of the deposited data

Results flagged for a closer look

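For 3 named members the ratio of the library labelled old to the one labelled young had opposite signs in naive and tumor-bearing tissue, each at least 1.5-fold on the deposited scale. The difference between the 2 ratios was not tested, since each group is 1 library. Cox6b2 had an old to young log2 ratio of -0.85 in naive and 0.76 in tumor-bearing tissue. For mt-Atp6 the values were 0.94 and -1.48, and for mt-Nd3 they were 0.64 and -1.72. Scaling by fragments in genes lowers the naive ratios by 0.14, which leaves that of mt-Nd3 under 1.5-fold. Both mitochondrial genes have near-identical copies on chromosome 1, and Cox6b2 had 17 to 138 reads per library.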

How the results depend on the processing

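Alternatives for the medians of nuclear and mitochondrially encoded members were set against the median bounds of the members' counting intervals. These bounds hold counting error only, not variation between animals or libraries. Of 60 alternatives, 43 kept the value within the bounds, 14 moved it outside and 3 turned its sign. Changes of pseudocount and floor did none of this to a median. Median-of-ratios scaling, scaling by fragments in genes and equal totals without mitochondrial and the 50 highest genes shifted log2 ratios by 0.38, 0.58 and 0.29 in the old pair. Under them, in that order, the old-pair nuclear median was -0.074, 0.12 and -0.16, and the mitochondrially encoded one -1.56, -1.37 and -1.65, with all 13 members still at least 2-fold lower. The young-pair mitochondrially encoded median was -0.27, -0.17 and -0.17. By fragments and equal totals the old against young naive medians were -0.15 and -0.14 (nuclear) and 0.026 and 0.040 (mitochondrially encoded). In old against young tumor-bearing tissue the first 2 scalings gave nuclear medians of 0.15 and 0.14 and mitochondrially encoded medians of -1.19 and -1.21, with 9 of 13 members at least 2-fold lower. Shares of all genes past 2-fold were counted on the deposited scale only.

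Of 1342 alternatives for the named members alone, 993 kept the ratio within its counting interval and 322 moved it outside. The other 27 turned the sign of a ratio whose counting interval lay on 1 side of 0. Ratios with an interval across 0 are not in the count of 27, and members not named are in none of these counts. In the old pair, scaling by fragments gave Ndufa12 0.19, Ndufs7 0.052, Cox7a2l 0.12, Atp5b 0.23, Ndufs1 0.12, Ndufa8 0.33, Cox7a2 0.43, Uqcrfs1 0.020 and Atp5k 0.094. Median-of-ratios scaling gave Atp5b 0.040, Ndufa8 0.13 and Cox7a2 0.24, and equal totals gave Ndufa8 0.041 and Cox7a2 0.15. By fragments, old against young naive ratios were -0.0097 for mt-Nd1, -0.0034 for mt-Co1 and -8.7e-05 for mt-Nd4. In old against young tumor-bearing tissue, median-of-ratios and fragment scaling gave Ndufa12 0.14 and 0.12, Ndufs7 0.052 and 0.036, Cox7a2l 0.27 and 0.26, Atp5b 0.23 and 0.21, and Cox6a1 0.027 and 0.011. These scalings move every gene by 1 amount, so directions of small ratios rest on the scale, while ratios between members do not. No paired analysis was possible because each group is 1 library. Leaving out a library would leave a comparison without a value. Restricting the mitochondrially encoded members to the 7 without a full copy was added after the data were seen and gave an old-pair median of -1.94.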
